A study of Mus musculus with 12 samples.

Results

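Hfm1, Idua, Mfsd7a, Crlf2 and Pcgf3 are 5 genes that lie on the same part of mouse chromosome 5, and their hippocampal RNA is described here in Madison (MSN) mice and in the ICR mice from which the MSN line descends. They were taken by symbol from the clusters to which the array's annotation gives 1 gene and no other. They are 5 of the 19938 genes measured in this way, and they are covered by 6 transcript clusters of the array, because Hfm1 has 2. A cluster is the set of probes that stands for a gene on the array. The genes were picked for their difference between MSN and ICR, so every value of that difference below is a description and carries no test.

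The study asked how gene expression differs between a mouse line with manic-like behavior and its ancestral line. Total RNA came from the macrodissected hippocampus of adult male mice, with 6 MSN and 6 ICR mice and 1 array for each mouse. MSN is an inbred line that was obtained by selective breeding from outbred hsd:ICR mice, and ICR served as the control. The labels give no transgene and no treatment for either group, and all animals were of about the same age. The colonies were kept apart for many generations in the same laboratory, so line and colony cannot be told apart, and MSN stands for 1 inbred line. The study also could not exclude sequence changes at the probe sites of some genes. Differences in probe binding and in RNA amount therefore cannot be told apart in the array signal.

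The 5 genes have different jobs in the cell. Hfm1 encodes a DNA helicase of meiosis that is needed for crossover formation and is known mainly from germ cells. Idua encodes alpha-L-iduronidase, the lysosomal enzyme that removes iduronic acid from heparan sulfate and dermatan sulfate, and its loss causes a storage disease that affects the brain. Mfsd7a, also called Slc49a3, encodes a membrane protein of the major facilitator superfamily, a large family of transporters. Crlf2 encodes the receptor chain for the cytokine TSLP, which pairs with the interleukin 7 receptor chain Il7r and signals through Jak and Stat5 proteins. Pcgf3 encodes a Polycomb group RING finger protein, which defines a variant of Polycomb repressive complex 1 that places ubiquitin on histone H2A.

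The promoters of 3 of these genes are shown. Mfsd7a and Pcgf3 are neighbors that differed between the lines in opposite directions, and Idua had the largest fall among the 5. Whether the promoter sequences bear on the values below was not tested. Each sequence is the 300 bases from 250 before to 50 after the RefSeq start site on GRCm38.p6, written in the direction of transcription, with every CG in capitals. The window of Mfsd7a is chr5:108449051-108449350 on the minus strand, that of Pcgf3 is chr5:108461009-108461308 on the plus strand, and that of Idua is chr5:108660081-108660380 on the plus strand.
Mfsd7a: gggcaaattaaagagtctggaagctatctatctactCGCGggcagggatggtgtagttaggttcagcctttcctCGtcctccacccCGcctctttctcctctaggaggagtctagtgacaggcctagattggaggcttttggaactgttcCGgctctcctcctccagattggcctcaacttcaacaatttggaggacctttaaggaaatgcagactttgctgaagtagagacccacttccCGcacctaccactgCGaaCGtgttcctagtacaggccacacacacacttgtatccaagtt
Pcgf3: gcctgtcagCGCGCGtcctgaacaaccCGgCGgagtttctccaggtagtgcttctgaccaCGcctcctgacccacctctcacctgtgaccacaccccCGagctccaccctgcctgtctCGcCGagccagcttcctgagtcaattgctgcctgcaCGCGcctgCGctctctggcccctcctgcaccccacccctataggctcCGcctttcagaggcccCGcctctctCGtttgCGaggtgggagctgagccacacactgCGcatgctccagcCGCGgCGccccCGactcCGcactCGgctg
Idua: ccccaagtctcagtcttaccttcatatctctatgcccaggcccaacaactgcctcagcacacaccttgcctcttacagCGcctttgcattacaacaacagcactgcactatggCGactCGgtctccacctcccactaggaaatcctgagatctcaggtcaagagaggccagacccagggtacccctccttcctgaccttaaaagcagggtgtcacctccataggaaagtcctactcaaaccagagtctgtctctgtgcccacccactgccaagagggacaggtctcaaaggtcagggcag

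Mfsd7a and Pcgf3 are therefore transcribed away from each other, and their windows do not overlap. The window of Pcgf3 held 23 CG, a number that 21.7% of the 32544 RefSeq promoters of the same length reach or pass, and 67.3% of its bases were G or C. The window of Mfsd7a held 8 CG, close to the median of 7, and that of Idua held 3, which 76.9% of promoters reach or pass. The promoters of Hfm1 and Crlf2 were rich in CG, with 41 and 31. A search on both strands for the GC box GGGCGG, whose letters contain a CG, found 6 in the Crlf2 window and 1 in the Hfm1 window, and 35.9% of all promoters hold at least 1. The letters CCAAT were found in 2 places in the Mfsd7a window and in no other of the 5, against 37.4% of all promoters. TATAAA was found in none of the 5 and in 13.6% of all promoters. These matches describe the letters in the windows, and the 3 genes that were lower in MSN, Idua, Mfsd7a and Crlf2, had none of these motifs in common.

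The 12 arrays were alike in brightness, with a median intensity between 373 and 389. No pair of arrays held identical values. Correlations over the clusters with a gene were 0.992 to 0.997 within a line and 0.992 to 0.996 between the lines. MSN mice 2 and 6 stood together, however: on 27.3% of the 23410 clusters with a gene they were the 2 highest or the 2 lowest of the 6 MSN mice. The next of the 15 MSN pairs did so on 20.7% and the ICR pairs on 8.89% to 19.8%, and values without both mice are given below where results rest on them. All 9 markers of hippocampal neurons lay above the median of every array. Of 53 measured marker genes of neurons, choroid plexus, microglia, oligodendrocytes, astrocytes and endothelium, limma called 1, the endothelial gene Emcn, which was higher in MSN (log2 fold change 0.34 ± 0.055 SE, adjusted p = 0.0125). The summed intensity of 8 endothelial markers was 5098 to 6300 in MSN and 4932 to 5394 in ICR. Of these 8, 5 had a log2 fold change above 0. An unadjusted p under 0.05 in limma was found for 2 of them, in opposite directions: Emcn and, at -0.17, Slco1a4. That of 6 astrocyte markers was 20185 to 22519 in MSN and 22412 to 24557 in ICR, with none called. An unadjusted p under 0.05 was found for 4 of the 6, in both directions: Gfap at -0.30, Aqp4 at -0.23 and Slc1a2 at -0.11, but Aldh1l1 at 0.19. The 11 measured choroid plexus markers all had a log2 fold change above 0 with none called, and summed to 10231 to 25521 in MSN and 8435 to 25675 in ICR. Of the 9 neuron markers 7 had a log2 fold change above 0, as had 7 of 8 oligodendrocyte markers and 7 of 11 microglia markers. In each of these sets 2 had an unadjusted p under 0.05 in limma and none was called. The part of these cell types in the values below was not tested. In such bulk samples, fewer cells of a type and less RNA per cell cannot be told apart.

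Hfm1, the meiotic helicase, was brighter in MSN mice. Its dimmer cluster had an intensity of 71.1 at the lowest, 84.1 at the median and 98.0 at the highest in MSN, and of 52.1, 60.7 and 64.2 in ICR. Every MSN mouse thus lay above every ICR mouse, with a gap of 6.88 between the groups. The means were 84.2 ± 9.29 in MSN and 58.7 ± 4.91 in ICR (SD, n = 6 each), and the log2 fold change of MSN over ICR was 0.42 ± 0.0625 (SE). All log2 values here are of the intensity plus 16, which makes the changes of dim clusters look smaller than they are. The brighter Hfm1 cluster gave 85.3, 116 and 147 in MSN against 80.5, 93.2 and 100 in ICR, with means of 116 ± 20.1 and 92.6 ± 6.96. MSN mouse 5, at 85.3, lay inside the ICR range on this cluster, while the other 5 MSN mice lay above it. The log2 fold change was 0.27 ± 0.0879. MSN mouse 2 was the highest and MSN mouse 5 the lowest of the MSN mice on both clusters. Without MSN mice 2 and 6 the log2 fold change was 0.38 for the dimmer cluster and 0.19 for the brighter cluster. The files hold no detection calls, and whether these low intensities lie above the background of the array was not tested.

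Pcgf3, the Polycomb group RING finger gene, was the other gene with more RNA signal in MSN. Its intensity was 1048 at the lowest, 1166 at the median and 1230 at the highest in MSN, and 924, 1019 and 1036 in ICR. The groups did not overlap, with a gap of 12.0 between ICR mouse 5 and MSN mouse 6. The means were 1150 ± 71.5 and 999 ± 44.3, or 15.1% more in MSN, and the log2 fold change was 0.20 ± 0.0460. MSN mice 2 and 6 were the 2 lowest of the MSN mice, and without them the log2 fold change was 0.25.

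Mfsd7a, the transporter gene next to Pcgf3 in the order of measured genes, was lower in MSN. Its intensity was 252, 260 and 294 (lowest, median, highest) in MSN and 301, 328 and 343 in ICR. The groups did not overlap, and the gap was 7.01. The means were 269 ± 18.2 and 323 ± 17.96, or -16.6% in MSN, with a log2 fold change of -0.25 ± 0.0485. MSN mice 2 and 6, at 294 and 290.4, were the 2 highest of the MSN mice and the nearest to ICR, and the other 4 lay between 252 and 260. Without those 2 mice the log2 fold change was -0.31.

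Idua, the lysosomal iduronidase, had the largest decrease of the 5 genes. Its intensity was 368, 415 and 445 in MSN and 467, 516 and 537 in ICR, again without overlap and with a gap of 21.4. The means were 414 ± 28.8 and 510 ± 28.9, or -18.9% in MSN, and the log2 fold change was -0.29 ± 0.0508. MSN mouse 5 was the lowest and ICR mouse 1 the lowest of its own group. Leaving out MSN mice 2 and 6 gave -0.32.

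Crlf2, the receptor chain for TSLP, was also lower in MSN. Its intensity was 411, 440 and 484 in MSN and 477, 528 and 573 in ICR. MSN mouse 4, at 484, lay above ICR mouse 3, at 477, and the remaining mice of both groups were apart. The means were 442 ± 24.0 and 529 ± 35.1, or -16.4% in MSN, and the log2 fold change was -0.25 ± 0.0487. Without MSN mice 2 and 6, which were the 2 lowest MSN mice here, it was -0.22.

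**Figure D1:**
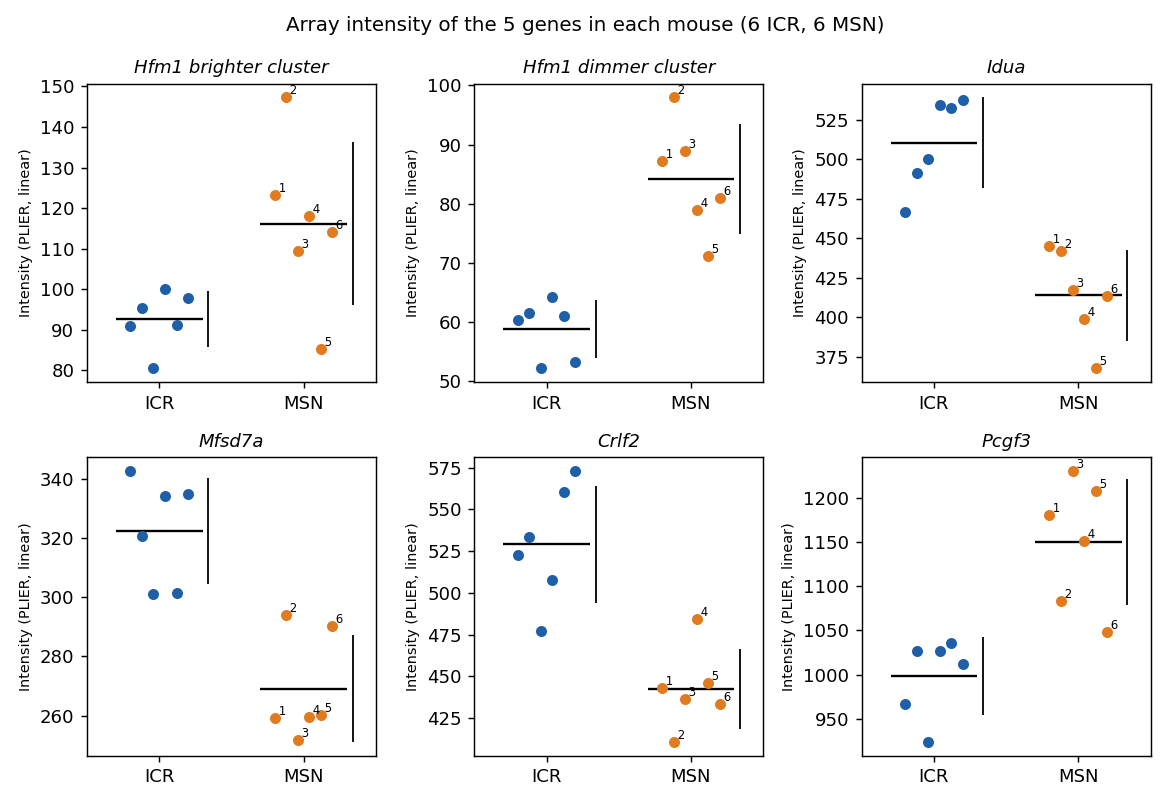
Array intensity (linear PLIER scale, vertical axes not starting at 0) of the 6 clusters of the 5 genes in each of 6 ICR and 6 MSN mice. Points are mice, with MSN mice numbered, horizontal lines are means and vertical lines span 1 SD on each side of the mean. Both Hfm1 clusters and Pcgf3 sit higher in MSN and Idua, Mfsd7a and Crlf2 lower, with MSN mouse 5 inside the ICR range on the brighter Hfm1 cluster and MSN mouse 4 inside it on Crlf2.

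In the limma fit across all 23410 clusters, 0.777% of clusters were called at an adjusted p under 0.05, 0.303% as higher and 0.474% as lower in MSN. Of the 6 clusters of the 5 genes 4 were called, the dimmer Hfm1 cluster as higher and Idua, Mfsd7a and Crlf2 as lower. Values of the groups did not overlap on 4 of the 6 clusters and on 1.44% of all clusters. Since the genes were chosen on this comparison, nothing is read from these counts. With each mouse left out in turn the dimmer Hfm1 cluster and Idua were called in 12 of 12 fits, Mfsd7a in 5 and Crlf2 in 4. On untransformed intensities the dimmer Hfm1 cluster was not called, and with the replicate number as a block it was the only one of the 6 that was. The count of called clusters fell to 2 without MSN mouse 1, MSN mouse 3, ICR mouse 1 or ICR mouse 6. Pcgf3 was called in 1 of the 12, without MSN mouse 6, and the brighter Hfm1 cluster in 1, without MSN mouse 5. The sign of all 6 differences was the same in all of these fits.

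The 5 genes are spread over a stretch of 41 measured genes from Barhl2 to Crlf2, taken in their RefSeq order. Hfm1 is number 3 in that order, Mfsd7a and Pcgf3 are numbers 25 and 26, Idua is number 31 and Crlf2 is number 41. With each gene represented by its brightest cluster, 10 of the 41 had an unadjusted p of 0.01 or less, 2 of them higher and 8 lower in MSN. Over all 19938 genes the share was 4.41%. The stretch, too, was found on this comparison, so its counts are a description. All 5 of the genes under study are among the 10, and the other 5 were lower in MSN: Cdc7, a kinase that starts DNA replication (log2 fold change -0.15), Tmed5, a cargo protein of the early secretory pathway (-0.27), Gm10419 (-0.24), Tmem175, a lysosomal ion channel (-0.20), and Vmn2r14, a vomeronasal receptor gene (-0.16). Among the 36 other genes of the stretch the 2 groups overlapped in every case.

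The change did not run evenly along the stretch. Of its 41 genes 16 had a log2 fold change above 0 and 25 below, and the median was -0.016 against -0.0081 over all genes. Next to Hfm1 lie Zfp644 at -0.06 ± 0.0374 and Cdc7 at -0.15 ± 0.0389, both opposite in sign to Hfm1. Mfsd7a lies between Atp5k at -0.02 ± 0.0593 and Pcgf3, and on the far side of Pcgf3 lies Cplx1, a synaptic vesicle release gene, at 0.04 ± 0.0407. Idua lies between Dgkq, a diacylglycerol kinase, at -0.10 ± 0.0368, and Slc26a1, a sulfate transporter gene nested on the other strand of Idua, at 0.11 ± 0.0756. Crlf2 lies between Vmn2r17 at 0.00 ± 0.0831 and Plcxd1 at -0.00 ± 0.0472. The differences of Mfsd7a and Pcgf3 thus had opposite signs. Those of Idua and Slc26a1 did too, but the groups overlapped for Slc26a1, with an unadjusted p of 0.177 in limma.

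On each side of the stretch the 20 nearest measured genes were listed in the same way. Before Barhl2 4 of 20 had an unadjusted p of 0.01 or less, and the groups did not overlap in 3. After Crlf2 the numbers were 2 and 2. None of these 40 genes was called. In the stretch itself the groups did not overlap in 3 of 41 genes, which are Idua, Mfsd7a and Pcgf3, against 1.48% of all genes. MSN mice 2 and 6 were the 2 highest or lowest MSN mice in 14 of the 41 genes of the stretch (34.1%), and in 23 of the 81 genes with both sides included (28.4%), beside 27.3% of all clusters.

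**Figure D2:**
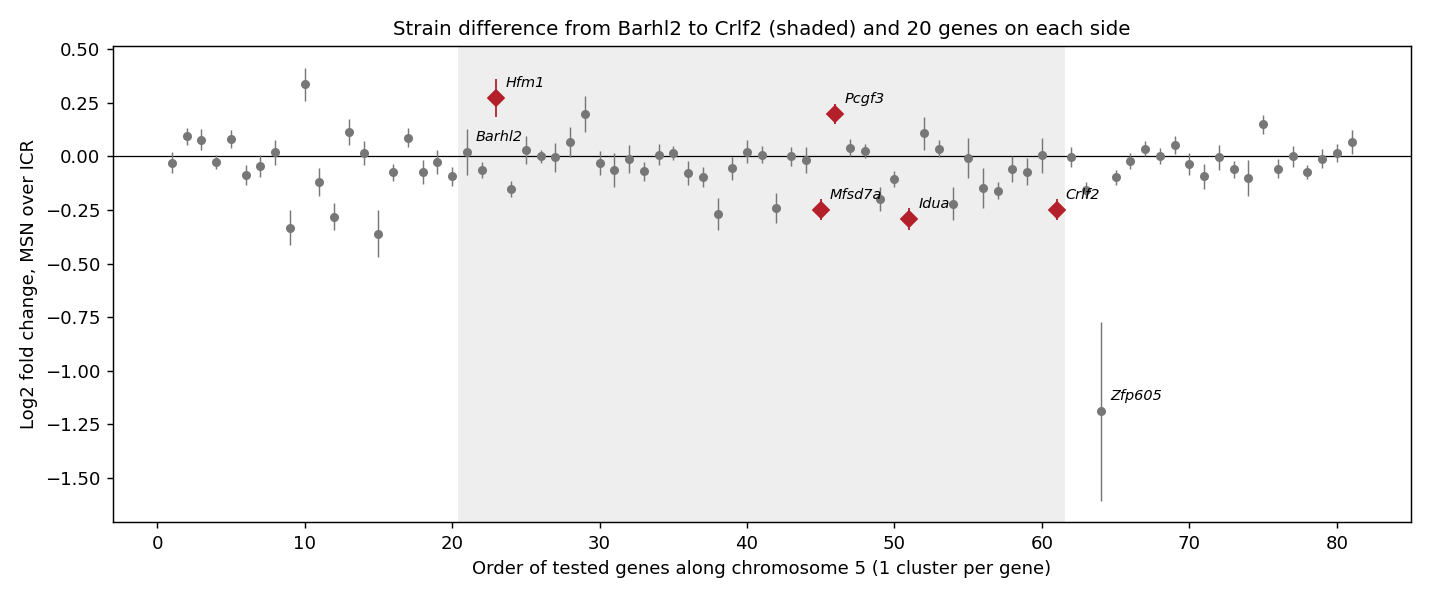
Log2 fold change of MSN over ICR (vertical axis, log2 of intensity plus 16) for the 41 genes from Barhl2 to Crlf2 (shaded) and 20 genes on each side, in chromosomal order (horizontal axis). Points are log2 fold changes from 6 mice per line, bars are 1 SE on each side and red diamonds are the 5 genes, which lie at 0.27 for Hfm1, -0.25 for Mfsd7a, 0.20 for Pcgf3, -0.29 for Idua and -0.25 for Crlf2 with genes near 0 between them. Zfp605, marked for its distance from the rest after its values were seen, lies outside the stretch.

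The other genes of each pathway were not used to choose the 5 genes, and limma's adjusted p over all 23410 clusters is given for them. The lists were, however, drawn up with earlier results of these data known. Of 87 genes on 5 lists, 77 were measured, 8 had an unadjusted p under 0.05 and 0 were called by limma, while 0.782% of all genes were called by their brightest cluster and 12.6% had an unadjusted p of 0.05 or less. Each list is described in turn. Genes of the lists that were not matched to a single-gene cluster were not analysed here.

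Hfm1 acts with the proteins of meiotic recombination, and 17 of 21 such genes were measured. None was called and 0 had an unadjusted p under 0.05. Of the 17, 7 had a log2 fold change above 0, the median was -0.014 and the values ran from -0.13 to 0.06. The smallest p belonged to Msh4, a MutS homolog that marks crossover sites, at -0.13 (adjusted p = 0.443). Psmc3ip, which helps strand exchange, followed at -0.12, and then Syce1, of the synaptonemal complex, and Prdm9, which sets recombination hotspots, both at -0.08.

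Idua works in lysosomes beside the other enzymes that take apart glycosaminoglycan chains. Of 13 such genes 10 were measured, none was called, and 2 had an unadjusted p under 0.05. These 2 had opposite signs: Sgsh, the sulfamidase of heparan sulfate, was 466 ± 10.9 in MSN and 423 ± 34.3 in ICR (log2 fold change 0.14, adjusted p = 0.224), and Naglu, which removes N-acetylglucosamine from the same chain, was 241 ± 21.5 and 262 ± 8.14 (-0.12, adjusted p = 0.372). Arsb and Galns, sulfatases of dermatan and keratan sulfate, were both at -0.08. The median of the 10 was -0.0018, and 4 were above 0. Ids, whose enzyme takes the sulfate from iduronic acid just before Idua acts, was at 0.04 (adjusted p = 0.715).

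Mfsd7a was set beside 17 relatives from the major facilitator superfamily, and all 17 were measured. None was called, 2 had an unadjusted p under 0.05 and 8 were above 0, with a median of -0.026. Mfsd8, a lysosomal membrane protein, was at -0.18 (adjusted p = 0.357) and Mfsd4a at -0.16 (adjusted p = 0.355). Mfsd10 was at -0.09, and Flvcr1, a close relative in the same SLC49 family, at 0.07.

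Crlf2 belongs to the TSLP receptor pathway, of which 12 of 13 other genes were measured. None was called and 1 had an unadjusted p under 0.05. That gene was Il7r, the partner chain of Crlf2 in the receptor, at 168 ± 13.5 in MSN and 191 ± 13.2 in ICR (log2 fold change -0.17 ± 0.0564, adjusted p = 0.199). The ligand Tslp was at 0.09 (adjusted p = 0.426), the kinase Jak2 at 0.08 and the cytokine Il7, which binds Il7r, at 0.10. Tslp was the dimmest gene of this list, with a mean intensity of 46.5, and whether it lies above background was not tested. Stat5a and Stat5b, the transcription factors at the end of the pathway, were at -0.03 and -0.05. The median of the 12 was -0.0052, and 6 were above 0. Microglia carry cytokine receptors, and their 11 markers summed to 7525 to 9038 in MSN and 7126 to 8462 in ICR, with 7 of 11 above 0 and none called.

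Pcgf3 is part of Polycomb repressive complex 1, and 21 of 23 other genes of its complexes were measured. None was called over all 12 mice, 3 had an unadjusted p under 0.05 and 7 were above 0, with a median of -0.023. Pcgf2, a relative of Pcgf3 that defines a canonical form of the complex, had the opposite sign: 439 ± 38.6 in MSN and 504 ± 17.7 in ICR (log2 fold change -0.19 ± 0.0518, adjusted p = 0.111). Only MSN mouse 2, at 504, lay inside the ICR range for Pcgf2. Without MSN mouse 2 limma called Pcgf2 at -0.23, the 1 call on this list, and without MSN mice 2 and 6 at -0.25. Bcorl1, a corepressor of a variant complex, was at -0.11 (adjusted p = 0.231) and Cbx7, which binds methylated histone H3, at -0.08 (adjusted p = 0.391). Pcgf6 was at 0.06, Pcgf1 at 0.04 and Pcgf5 at -0.01, and the catalytic subunits Ring1 and Rnf2 were at -0.03 and -0.02.

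**Figure D3:**
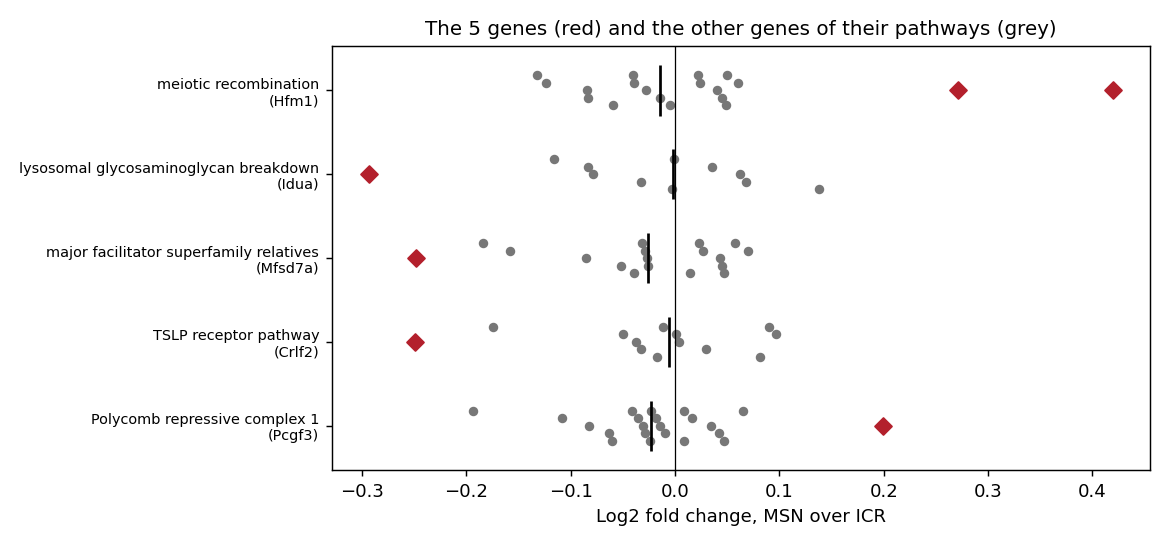
Log2 fold change of MSN over ICR (horizontal axis, log2 of intensity plus 16) for the 5 genes (red diamonds, with 2 for the clusters of Hfm1) and the measured genes of their pathways (grey points, 1 row for each list). Thick bars are list medians, between -0.026 and -0.0018. The grey points run from -0.19 to 0.14; the red genes were chosen on this difference, so their distance from the grey points is not a finding.

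Which line had the larger spread between mice was not used to choose the genes. A small spread within both lines can, however, help a gene to be picked for a difference. The lines were compared by an exact permutation test of the mean absolute deviation from the group median (two-sided, smallest possible p 0.00216). MSN is inbred and ICR outbred. The mean absolute deviation was larger in MSN for Hfm1, Idua and Pcgf3 and larger in ICR for Mfsd7a and Crlf2. For Hfm1, by its brighter cluster, the SD of log2 values was 0.224 in MSN and 0.0949 in ICR (exact p = 0.316, adjusted over 5 genes 0.776). For Pcgf3 it was 0.0895 and 0.0642 (exact p = 0.405), for Idua 0.0983 and 0.0801 (exact p = 0.905), and for Mfsd7a 0.0904 and 0.0772 (exact p = 0.970), although the tested deviation of Mfsd7a was the larger in ICR, by 0.0015. Crlf2 had the larger SD in ICR, 0.0936 against 0.0746 (exact p = 0.465). No difference in spread passed the test. Over all clusters the median SD was 0.0868 in MSN and 0.0855 in ICR, and 49.97% of clusters had the larger SD in ICR.

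Whether the 5 genes moved together from mouse to mouse was examined within each line, over 10 pairs of genes in 2 lines. Of the 20 relations 13 were positive, 2 had a raw exact p under 0.05 and none passed after Benjamini-Hochberg adjustment, the lowest adjusted p being 0.306. The smallest raw p was that of Mfsd7a with Pcgf3 in MSN (exact p = 0.0167, adjusted 0.306, n = 6). MSN mice 2 and 6 were high for Mfsd7a and low for Pcgf3 and lay apart from the other 4 on Mfsd7a, so no r over the 6 mice is given and the relation cannot be tested within the remaining 4, where r was -0.681. In ICR mice r was 0.176 for the same pair (exact p = 0.776; rho = -0.086, exact p = 0.919). Hfm1 and Idua varied in the same direction in MSN (Pearson r = 0.874, exact p = 0.0306, adjusted 0.306; Spearman rho = 0.714, exact p = 0.136, adjusted 0.705), with r at 0.478 without the 2 mice farthest from the Hfm1 median, so that the relation rests on those mice. In ICR it was 0.405 (exact p = 0.418). The median of the 10 values of r was 0.470 in ICR and -0.352 in MSN, and the difference between the lines was not tested.

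**Figure D4:**
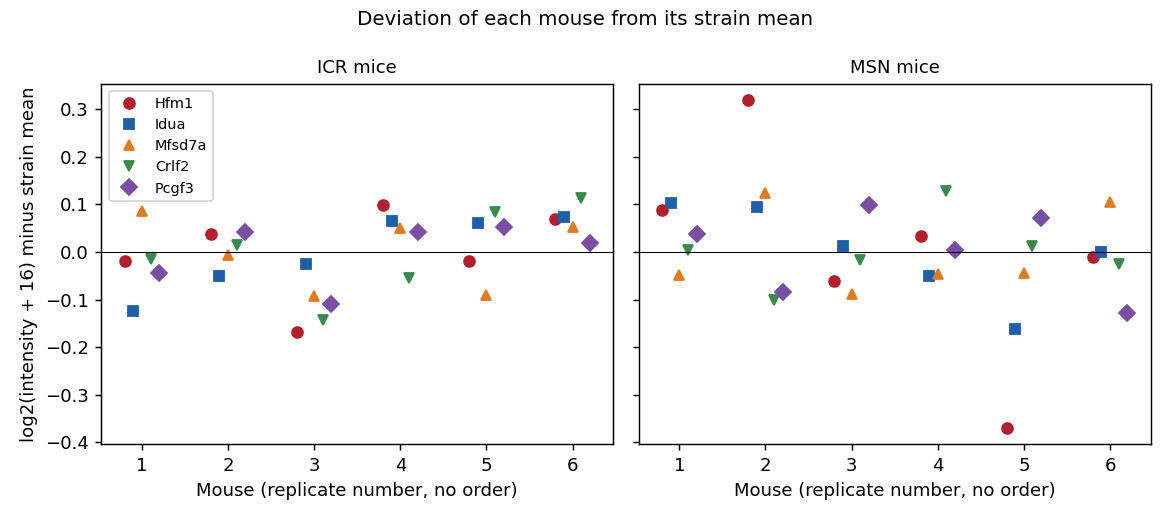
Deviation of each mouse from the mean of its own line (vertical axis, log2 of intensity plus 16) for the 5 genes, with the replicate number on the horizontal axis, which has no order; Hfm1 is shown by its brighter cluster. In MSN mice 2 and 6 the Mfsd7a points lie above 0 and the Pcgf3 points below, and Hfm1 has the widest spread in MSN (SD 0.224).

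The 2 clusters of Hfm1 were also set against each other. Their values had an r of 0.875 over the MSN mice (exact p = 0.0403; rho = 0.600, exact p = 0.242) and of 0.555 over the ICR mice (exact p = 0.258; rho = 0.657, exact p = 0.175). Without the 2 mice farthest from the median r was -0.177 in MSN, so the relation rests on MSN mice 2 and 5, and -0.728 in ICR.

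The genes most like each of the 5 were found from the deviations of the 12 mice from the means of their lines, over all other single-gene clusters, as a description without a test. For Hfm1 they were Mir325 (r = 0.954), Uggt2 (0.938) and Egfem1 (0.936). For Idua they were Slx1b (0.922), Pnkd (0.905) and Gart (0.896), and for Crlf2 Syt1 (0.910), Gpr165 (0.899) and Ctdspl (0.888). Pcgf3 was most like Olfm1 (0.970), Mocs2 (0.927) and Mib1 (0.925). Mfsd7a was most like Npc1l1 (0.924), 4930470P17Rik (0.914) and D830014E11Rik (0.907), and the last of these lies among the 20 genes before Barhl2. D830014E11Rik had intensities of 140 and 132 in MSN mice 2 and 6 and of 110 to 113 in the other MSN mice. None of the 15 most similar clusters belonged to another of the 5 genes. Each search ran over at least 21787 clusters, so nothing is read from that absence.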

How the data were processed

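RNA of 12 hippocampi was hybridized to Affymetrix Mouse Gene 1.0 ST arrays. The deposited values are intensities on a linear scale, which the authors summarized by PLIER with background corrected by GC bin (Affymetrix Power Tools 1.12.0). The table holds 35556 clusters, of which the platform annotation pairs 21789 with 1 gene, 1621 with several and 12146 with none, and 21698 matched a RefSeq gene of GRCm38.p6, which was used for gene order. With 16 added, log2 values were fitted in limma 3.58.1 (R 4.3.3, lmFit and eBayes) with line as the only term, and p-values were adjusted by Benjamini-Hochberg over the 23410 clusters with a gene. Exact tests were computed in Python 3.11.15 with numpy 2.4.6, and scipy 1.17.1 gave the ranks for Spearman rho. The fit was tested on simulated data. The genes and lists were chosen with earlier results of these data known. Named genes are the 5, their neighbors on each side, genes of the stretch at an unadjusted p of 0.01 or less, the 4 with the smallest p on each pathway list (others there, such as Ids, Stat5a and Ring1, were added after their values were seen), and the 3 most similar clusters to each. The genome build of the array annotation is not given in the sources used here. The replicates were separate mice, and scan batches are not known here. Background correction could not be varied without scanner files. The number of arrays limits the precision.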

Additional observations from a re-analysis of the deposited data

How the results depend on the processing

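Of 448 values recomputed under other settings 416 were held to be the same. For counts this meant staying within 1.5 times the count reported. For other values it meant the same direction and, for log2 fold changes, also lying within 1 SD of the value reported. The log2 fold changes of the 6 clusters kept their sign in all 140 refits, and 139 lay within 1 SD of the value reported; the exception was the dimmer Hfm1 cluster at 0.27 with 64 added in place of 16. The count of called clusters among the 6, 4 in the fit reported, was 2 when all 35556 clusters were tested (Mfsd7a and Crlf2 lost), 3 on untransformed intensities (dimmer Hfm1 cluster lost), 3 after median scaling (Crlf2 lost), 5 with 64 added, quantile normalization, trended robust eBayes or array weights (Pcgf3 gained), 4 without MSN mice 2 and 6 (Crlf2 lost, Pcgf3 gained) and 2 to 4 with 1 mouse left out. Over all clusters, 182 were called, against 279 with 64 added, 315 with array weights, 108 without MSN mice 2 and 6 (chosen after seeing the data) and 91 to 210 with 1 mouse left out. The share of calls that were higher in MSN rose from 39.0% (71 higher, 111 lower) to 54.6% after quantile normalization (131 higher, 109 lower) and 56.4% after scaling to the same median (115 higher, 89 lower), for which the cause was not tested. The Polycomb list had 1 call, Pcgf2, without MSN mice 2 and 6, and 0 to 1 with 1 mouse left out (1 without MSN mouse 2), while the other 4 pathway lists had 0 under every setting run. The difference in mean absolute deviation, ICR minus MSN, changed sign for Idua (-0.0033) to 0.0134 after quantile normalization and 0.0203 after median scaling, for Mfsd7a (0.0015) to -0.0043 and -0.0067, and for Crlf2 (0.022) to -0.0026 after median scaling; with 1 mouse left out the ranges were -0.027 to 0.018 for Idua and -0.015 to 0.023 for Mfsd7a, and no spread and no correlation passed its adjusted test under any setting run. Same-numbered mice of the 2 lines had correlations of -0.126 to 0.125 in their deviations, and 1 of 6 numbers correlated best with its own. These values show no clear pairing by number, and whether mice of the same number shared a batch is not known. With the number as a replicate block, 42 clusters were called, 1 of them among the 6 (the dimmer Hfm1 cluster). Settings that drop clusters gave no count for the 6. With 6 mice a line, changes of the size of Pcgf3, Crlf2 and Mfsd7a passed or missed the threshold depending on the setting.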

Other observations

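Just past the stretch lies Zfp605, a zinc finger gene that is the third measured gene after Crlf2 and was singled out after its values were seen. Its intensity was 846 to 954 in 4 MSN mice and 162 and 191 in MSN mice 2 and 6. In ICR mouse 1 it was 796, and in the other 5 ICR mice it was 1273 to 1449. The log2 fold change of MSN over ICR was -1.19 ± 0.417 (SE), and limma did not call it. MSN mice 2 and 6 are also the 2 highest MSN mice for Mfsd7a and the 2 lowest for Pcgf3 and Crlf2. The cause was not tested.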
